A study of Mus musculus with 6 samples.

Results

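The genes described here encode the enzymes that hydroxylate and crosslink collagen: the prolyl 4-hydroxylase subunits P4ha1, P4ha2, P4ha3 and P4hb, the lysyl hydroxylases Plod1, Plod2 and Plod3, and the lysyl oxidases Lox, Loxl1 and Loxl2. These genes and the related lists below were chosen by name, with earlier results of these data known. The genes were found by gene symbol. All 10 were among the 53735 features of the count table, and all 10 passed the filter on low counts, which left 13092 genes to test. They were measured by RNA sequencing in cultured mouse bone marrow stromal cells labelled wild type, of which 3 libraries came from control cultures and 3 from cultures given apoptotic thymocytes. The protocols in the labels say that marrow cells negative for haematopoietic lineage markers, CD45 and CD31 and positive for CD51 were sorted, grown at 2% oxygen in medium without ascorbic acid and used at passage 2 or 3. Fed wells received 5000000 dye-labelled primary mouse apoptotic thymocytes each and were kept for 24 h at 5% oxygen, and the stromal cells carrying the dye were then sorted. Control wells were given no target cells. Neither their oxygen over the same 24 h nor any change of their medium is stated in the labels. Feeding, the selection of cells that carried the dye, fresh medium and a change of oxygen therefore cannot be told apart. Whether the 3 libraries of each group are separate cultures or animals is not stated, so the p-values reflect only library-to-library spread, which may be technical.

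Collagen is modified in the endoplasmic reticulum before it folds. Prolyl 4-hydroxylase is a tetramer of catalytic alpha subunits, encoded by P4ha1, P4ha2 or P4ha3, and beta subunits encoded by P4hb, which is also the chaperone protein disulfide isomerase; its product, 4-hydroxyproline, keeps the triple helix stable at body temperature. The lysyl hydroxylases make hydroxylysine, which carries sugars and forms the more stable crosslinks, and both kinds of hydroxylase need iron, 2-oxoglutarate, oxygen and ascorbate. Outside the cell the lysyl oxidases, which hold copper, oxidise lysine and hydroxylysine in collagen and lysine in elastin, the step from which crosslinks form. Several of these genes, among them P4ha1, P4ha2, Plod2, Lox and Loxl2, are known targets of the hypoxia-inducible factors.

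Library totals ran from 19069074 to 22410047 counts, and the first principal component, with 56.3% of the variance, separated the groups, while the second, with 14.3%, placed control replicate 3 away from control replicates 1 and 2. Stromal genes were abundant, with Pdgfra at 494 ± 19.9 CPM (counts scaled to 1000000 per library, SD, n = 3) in control cells, but the marrow niche marker Lepr stood at only 4.17 ± 0.446. The 10 stromal markers summed to between 36204 and 37681 CPM in control and between 31695 and 33620 CPM in fed libraries. Col1a1 and Col1a2 made up most of this sum, at means of 19408 and 12550 CPM in control libraries. Of the 10 markers 6 fell, where 19.0% of all genes tested did, and none rose. Their median log2 fold change was -0.22, close to the -0.23 of the 10 enzymes. Pdgfra itself fell by 0.31 ± 0.041 on the log2 scale (edgeR adjusted p = 5.31e-06). The 16 thymocyte markers summed to between 0.417 and 0.948 CPM in control and between 0.828 and 1.98 CPM in fed libraries, and 4 of them, Cd3g, Ptcra, Rag2 and Cd5, had no count in any library. Cd8a, Cd8b1 and Dntt had counts in all fed and in no control libraries. Rag1 and Ptprc were higher in every fed library than in any control library, and Themis was lower. These genes had at most 12 counts in a library. Lck made up most of the control sum, at 0.371 to 0.79 CPM, and overlapped between the groups. The 11 macrophage markers summed to between 15.2 and 16.9 CPM in control and between 21.1 and 23.2 CPM in fed libraries, with Lyz2 and Cd14 higher and Fcgr1 at 0 in all libraries. Adgre1, C1qa and C1qb had 3 to 7 counts in each fed library and none in control libraries. The edgeR call of Cd14 was at an adjusted p of 0.049, and DESeq2 (0.196) and limma-voom (0.0592) did not make it, while both called Lyz2. The 7 endothelial markers summed to between 5.79 and 6.11 CPM in control and between 4.05 and 5.4 CPM in fed libraries, with Cdh5, Tie1 and Emcn at 0 in all. Their part in the results below was not tested. In bulk RNA a lower value from fewer cells of a type cannot be told apart from one from less RNA per cell.

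In fed cells 7 of the 10 genes fell and none rose. Plod2, P4ha2 and P4ha1 fell most, by 24.1%, 23.4% and 19.8%, followed by Plod1, Loxl2, Loxl1 and P4ha3, while P4hb, Plod3 and Lox, which have the highest levels per length of the 10, did not pass the test. The test was edgeR's quasi-likelihood test with a Benjamini-Hochberg adjusted p under 0.05 over all genes tested. In the same fit 19.0% of all genes were called lower and 20.5% higher, 39.5% in all. No member had an unadjusted p under 0.05 in the upward direction, and none was called higher by DESeq2 or limma-voom, which called 16.3% and 20.1% of all genes higher. DESeq2 called 6 of the 10 lower, against 13.8% of all genes, and limma-voom 7, against 19.0%. The median log2 fold change of the 10 was -0.23, against -0.01 for all genes tested. Since the 10 were chosen with earlier results of these data known, these shares describe them and are no test of the set. Every fed library lay below every control library for 9 of the 10 genes, all but Lox, where this held for 24.0% of all genes tested.

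**Figure D1:**
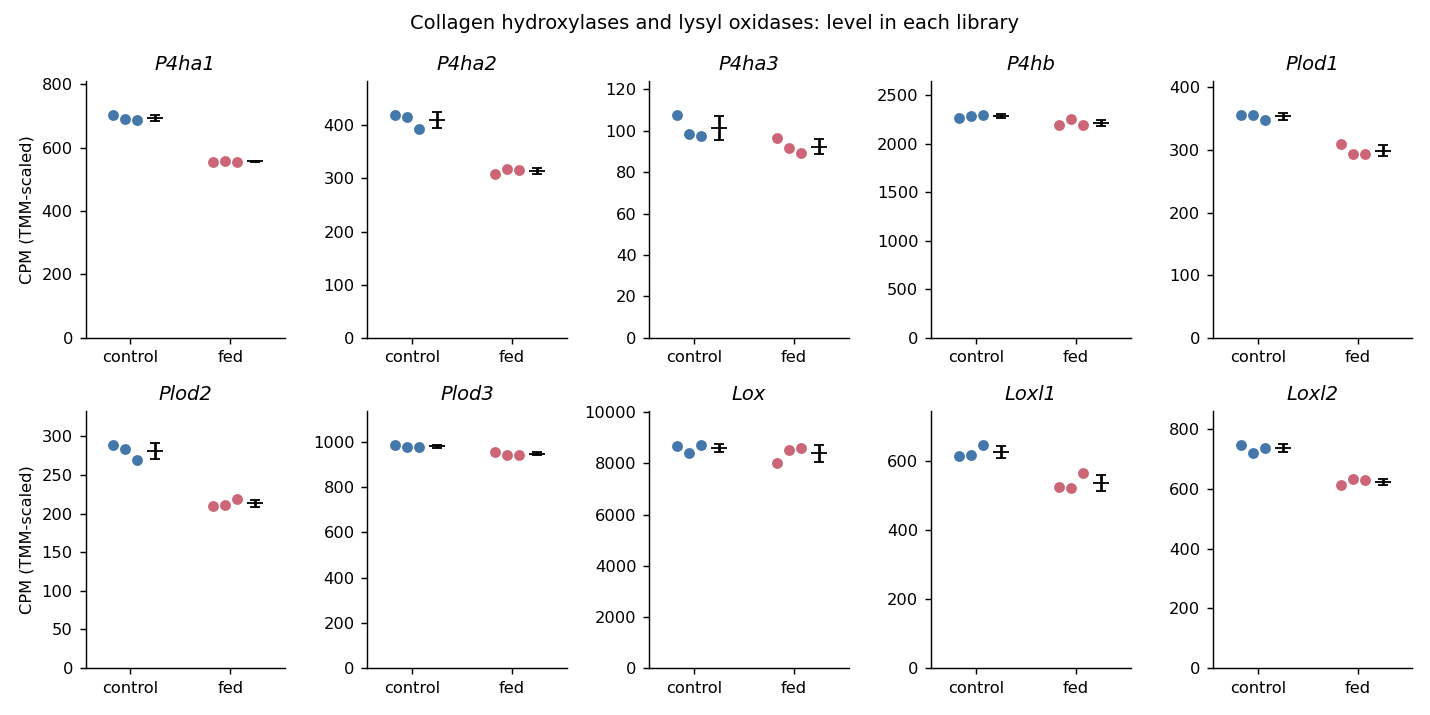
Level of each gene in every library, as CPM on axes that start at 0, with control libraries in blue and fed libraries in red and the mean with its SD (n = 3) in black. The fed points lie below the control points for all genes but Lox, and the gap is widest in proportion for Plod2, P4ha2 and P4ha1.

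The promoters of these genes were set beside each other because several members moved together and some did not. RefSeq promoter sequences on GRCm38.p6, from 250 bases before to 50 bases after the start site, were examined for 6 of the 10 genes. These were P4ha1, P4ha2, P4ha3, P4hb, Plod1 and Plod3. No sequence was found for Plod2, Loxl1 or Loxl2, and Lox was left out. The 5 below are those of P4ha1, P4ha2 and Plod1, which fell, and of P4hb and Plod3, which did not pass. Each is written 5′ to 3′ on the strand of its gene, and capitals mark ACGTG and GCGTG, the cores of the hypoxia response element, on either strand, so that CACGT and CACGC are capitals too.
P4ha1 (chr10:59323046-59323345, plus strand): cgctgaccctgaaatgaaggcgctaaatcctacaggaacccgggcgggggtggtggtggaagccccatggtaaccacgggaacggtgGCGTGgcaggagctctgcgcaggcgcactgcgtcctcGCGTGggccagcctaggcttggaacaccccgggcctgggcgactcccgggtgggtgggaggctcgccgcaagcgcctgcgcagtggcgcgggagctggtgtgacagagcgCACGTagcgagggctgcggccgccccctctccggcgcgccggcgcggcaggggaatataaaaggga
P4ha2 (chr11:54100674-54100973, plus strand): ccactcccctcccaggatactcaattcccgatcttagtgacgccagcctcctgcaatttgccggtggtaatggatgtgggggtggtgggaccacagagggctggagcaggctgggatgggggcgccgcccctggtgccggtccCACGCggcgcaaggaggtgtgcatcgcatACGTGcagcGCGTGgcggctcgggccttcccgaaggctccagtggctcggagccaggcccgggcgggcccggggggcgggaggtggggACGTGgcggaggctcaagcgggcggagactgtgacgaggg
Plod1 (chr4:147936727-147937026, minus strand): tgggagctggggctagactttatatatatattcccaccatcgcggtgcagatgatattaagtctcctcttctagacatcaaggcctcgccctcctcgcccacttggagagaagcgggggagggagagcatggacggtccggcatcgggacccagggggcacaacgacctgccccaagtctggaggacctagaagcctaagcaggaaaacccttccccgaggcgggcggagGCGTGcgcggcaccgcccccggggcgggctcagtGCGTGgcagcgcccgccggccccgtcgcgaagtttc
P4hb (chr11:120573204-120573503, minus strand): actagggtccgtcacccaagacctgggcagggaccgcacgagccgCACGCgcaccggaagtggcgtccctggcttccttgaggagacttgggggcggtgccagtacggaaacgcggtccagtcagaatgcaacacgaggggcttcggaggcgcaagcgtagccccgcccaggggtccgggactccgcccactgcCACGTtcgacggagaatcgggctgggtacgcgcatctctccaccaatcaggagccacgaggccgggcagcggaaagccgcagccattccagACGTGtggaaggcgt
Plod3 (chr5:136986769-136987068, plus strand): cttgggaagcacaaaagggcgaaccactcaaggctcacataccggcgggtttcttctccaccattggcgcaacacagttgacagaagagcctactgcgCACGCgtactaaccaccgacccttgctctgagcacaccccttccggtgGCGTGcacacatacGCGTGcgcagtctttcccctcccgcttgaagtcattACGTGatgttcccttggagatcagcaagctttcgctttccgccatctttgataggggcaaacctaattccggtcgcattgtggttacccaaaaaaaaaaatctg

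Among the 6 promoters, matches to these cores did not divide the genes that fell from those that did not pass. Plod2, Loxl1, Loxl2 and Lox were not compared. The P4ha1 promoter held 1 ACGTG, on the other strand at 12 to 16 bases before the start, and 2 GCGTG. The P4ha2 promoter held 2 ACGTG and 2 GCGTG, in a window that starts at 54100674, inside the gene as annotated from 54100095. The Plod1 promoter held 0 ACGTG and 2 GCGTG. Among the genes that did not pass, P4hb held 2 ACGTG and 1 GCGTG, and Plod3 held 1 ACGTG and 3 GCGTG. The promoter of P4ha3, which fell least, held neither. Counting both strands, ACGTG was found in 19.6% of the 32851 RefSeq promoters of this length, GCGTG in 32.4% and at least 1 of them in 43.8%. The 6 promoters had a GC content from 53.3% to 70.3%, above the median of 52.7% over all promoters, and such cores hold CpG. A match is a run of letters and does not show that a factor binds there.

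The catalytic alpha subunits of prolyl 4-hydroxylase all fell. P4ha1 (chromosome 10, 59323296 to 59373304, plus strand, GENCODE M21 on GRCm38) had 705, 689 and 687 CPM in the control libraries and 555, 558 and 556 CPM in the fed libraries. The fed libraries were nearly the same as each other, with a coefficient of variation of 0.262%, and all stood far below the control range. The log2 fold change was -0.32 ± 0.035 (SE, adjusted p = 4.4e-07).

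P4ha2 (chromosome 11, 54100095 to 54131665, plus strand) encodes the other widely used alpha subunit. Its levels were 420.3, 416 and 392 CPM in control and 308, 317 and 316 CPM in fed libraries. Control replicate 3 was the lowest of its group, and it still exceeded the highest fed library. P4ha2 fell by 0.38 ± 0.037 on the log2 scale (adjusted p = 8.19e-08).

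P4ha3 (chromosome 7, 100285520 to 100319699, plus strand) is the least abundant alpha subunit, with 108, 98.3 and 97.3 CPM in control and 96.3, 91.5 and 89.1 CPM in fed libraries. The groups did not overlap, but the lowest control and the highest fed library nearly met. The fall was 0.13 ± 0.045 on the log2 scale (adjusted p = 0.0228). This call was lost with library totals only (adjusted p = 0.0748), by DESeq2 (0.0802), and by edgeR on leaving out control replicate 1 (0.147), fed replicate 2 (0.0826) or fed replicate 3 (0.115).

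The beta subunit did not pass the test. P4hb (chromosome 11, 120560298 to 120573253, minus strand) had 2263, 2287 and 2300.1 CPM in control and 2191, 2251 and 2193 CPM in fed libraries. The fed libraries were lower in each case, by about as much as they differed among themselves. The log2 fold change was -0.05 with a 95% interval from -0.12 to 0.03 (adjusted p = 0.347). Within a library, the log2 ratio of P4ha1 to P4hb counts went from -1.72 ± 0.031 to -1.99 ± 0.018 (SD, n = 3) and that of P4ha2 to P4hb from -2.48 ± 0.064 to -2.82 ± 0.019, with no overlap between the groups in either. An exact two-sided permutation test of 3 against 3 libraries cannot go below p = 0.1, and both ratios reached it (adjusted p = 0.13 over 13 ratios). For P4ha3 the ratio to P4hb moved by -0.09 and the groups overlapped (exact permutation p = 0.3, adjusted p = 0.325).

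Per length, using CPM divided by the kilobases of merged annotated exons, the alpha subunits together stood at 267 ± 6.06 in control and 215 ± 0.729 CPM per kb in fed cells. P4hb exceeded this sum by a factor of 3.00 ± 0.0922 in control and 3.60 ± 0.0457 in fed libraries. The share of P4ha1 in the alpha subunits was 63.3 ± 0.662% and 62.9 ± 0.168%, that of P4ha2 24.6 ± 0.501% and 23.4 ± 0.372%, and that of P4ha3 12.1 ± 0.436% and 13.7 ± 0.523%. P4ha1 was thus the main alpha subunit in every library. These shares depend on the annotated lengths, since the annotation used for counting is not given in the sources used here.

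Of the lysyl hydroxylases, Plod2 and Plod1 fell. Plod2 (chromosome 9, 92542223 to 92608428, plus strand), which hydroxylates lysine in the telopeptides at the ends of collagen, had 289, 284 and 269.8 CPM in control libraries. The fed libraries had 210.0, 211 and 219 CPM, all below the lowest control. Plod2 fell by 0.40 ± 0.038 on the log2 scale (adjusted p = 6.42e-08), the most of the 10 genes. Plod1 (chromosome 4, 147909753 to 147936767, minus strand), which hydroxylates lysine in the triple helix, had 357, 356 and 348 CPM in control and 309.6, 294 and 294 CPM in fed libraries. Fed replicate 1 was the highest of its group and still below all control libraries. Plod1 fell by 0.24 ± 0.036 (adjusted p = 2.15e-05).

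Plod3 (chromosome 5, 136987019 to 136996648, plus strand), which in addition transfers sugars to hydroxylysine, had 987, 978 and 976 CPM in control and 955, 943 and 944 CPM in fed libraries. The groups lay apart but close, with a coefficient of variation of 0.647% in control and 0.711% in fed libraries. Its log2 fold change of -0.05 had a 95% interval from -0.12 to 0.02 and did not pass (adjusted p = 0.286). Of the exons of Plod3, 11.7% overlap Znhit1 on the opposite strand. Znhit1 had between 573 and 750.0 counts per library, and since the strand setting of the counting is not given, the reads of that stretch cannot be told apart. Likewise Gm38391 overlaps 6.42% of the exons of Plod2 and Gm27177 overlaps 5.57% of those of Loxl2 on the opposite strand, and neither was analysed here.

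Ratios among the lysyl hydroxylases lay apart between control and fed libraries. The log2 ratio of Plod2 to Plod3 went from -1.80 ± 0.044 to -2.15 ± 0.040, that of Plod1 to Plod3 from -1.47 ± 0.015 to -1.66 ± 0.034 and that of Plod2 to Plod1 from -0.33 ± 0.032 to -0.49 ± 0.068, none with overlap (each at the smallest exact permutation p of 0.1, adjusted p = 0.13). Per length, Plod3 held 67.5 ± 0.438% of the 3 genes in control and 71.5 ± 0.196% in fed libraries. Plod2 held 16.2 ± 0.390% and 13.5 ± 0.357%. In control cells Plod1 and Plod2, at 52.2 ± 0.736 and 52.1 ± 1.85 CPM per kb, did not differ beyond their spread.

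Lox (chromosome 18, 52516067 to 52529867, minus strand), the founding lysyl oxidase, ranked 6 by mean CPM among all genes tested. It had 8663, 8409 and 8732 CPM in control and 8025, 8530 and 8612 CPM in fed libraries. The groups overlapped, with fed replicate 1 the lowest of all 6 libraries. Its log2 fold change was -0.04 with a 95% interval from -0.12 to 0.05 (adjusted p = 0.525).

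Loxl1 (chromosome 9, 58287738 to 58313186, minus strand), which is needed for elastic fibre upkeep in mice, had 615, 618 and 648 CPM in control libraries. The fed libraries had 524, 521 and 565 CPM, and the highest of them was fed replicate 3. Loxl1 fell by 0.22 ± 0.040 on the log2 scale (adjusted p = 0.000139). Loxl2 (chromosome 14, 69609068 to 69695834, plus strand), a lysyl oxidase with scavenger receptor domains that crosslinks basement membrane collagen, had 748, 722 and 739 CPM in control and 612, 632 and 629 CPM in fed libraries. All fed libraries stood below all control libraries, and Loxl2 fell by 0.24 ± 0.036 (adjusted p = 2.28e-05).

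The ratios of Loxl1 and Loxl2 to Lox within a library were lower in every fed library, and that of Loxl2 to Loxl1 overlapped between the groups. The log2 ratio of Loxl1 to Lox went from -3.78 ± 0.034 to -3.97 ± 0.058 and that of Loxl2 to Lox from -3.55 ± 0.015 to -3.75 ± 0.032, both without overlap (exact permutation p = 0.1, adjusted p = 0.13). The ratio of Loxl2 to Loxl1 was 0.23 ± 0.047 in control and 0.22 ± 0.061 in fed libraries (exact permutation p = 0.7, adjusted p = 0.7). A p of this size does not show that the ratio stayed the same, and fed values ran from 0.155 to 0.277 against 0.189 to 0.283 in control. Per length, Lox held 79.8 ± 0.277% of the 5 lysyl oxidases in control and 80.8 ± 0.591% in fed libraries, Loxl1 8.43 ± 0.168% and 7.49 ± 0.263%, and Loxl2 6.04 ± 0.0803% and 5.32 ± 0.0874%.

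**Figure D2:**
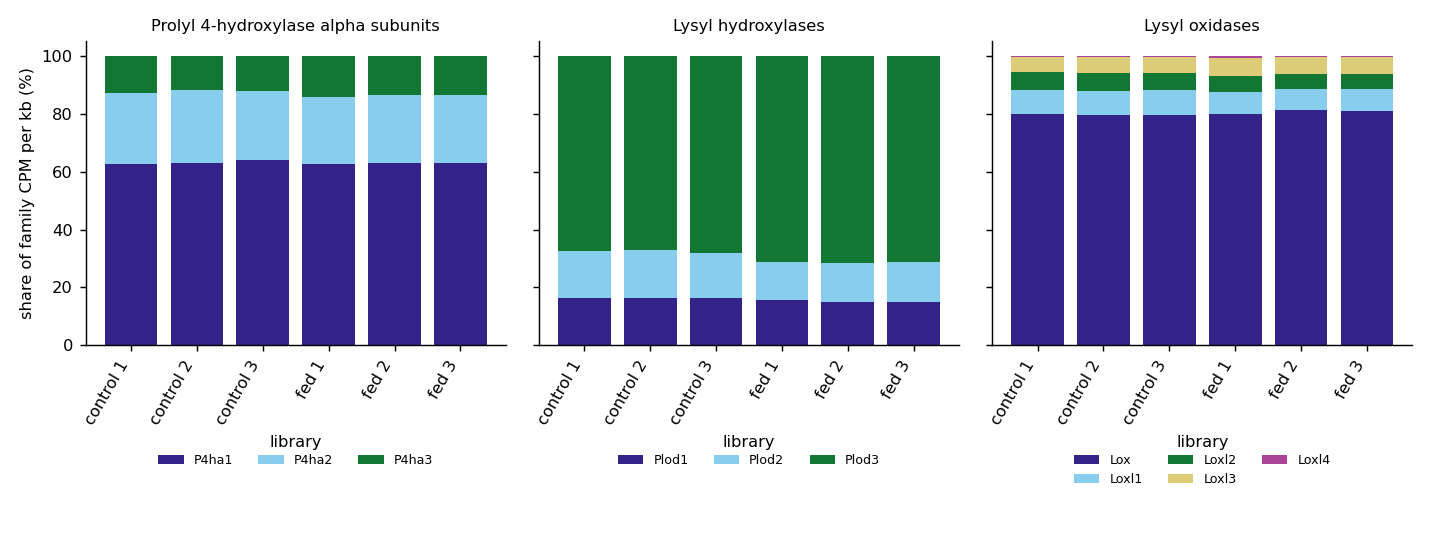
Share of each gene in its family in every library, in percent of the family's summed CPM per kb of merged exons, for alpha subunits, lysyl hydroxylases and lysyl oxidases. P4ha1, Plod3 and Lox hold the largest shares in all 6 libraries, and the share of Plod2 is smaller in the 3 fed libraries, at 13.2% to 13.9%, than in the control libraries, at 15.8% to 16.5%.

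**Figure D3:**
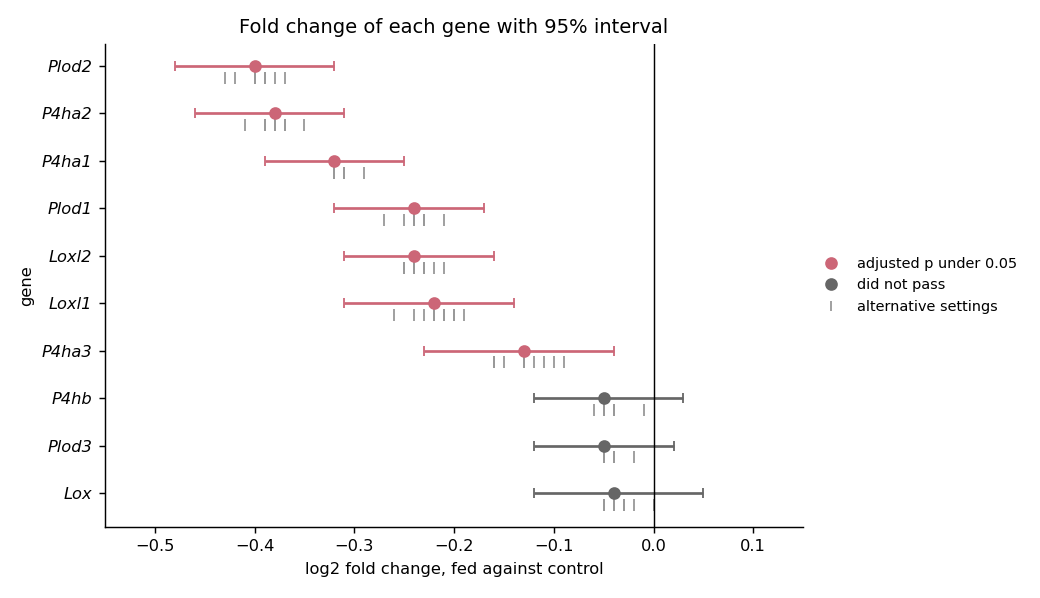
Log2 fold change of fed against control cells for each gene, with its 95% interval from the edgeR fit (dot and bar) and its value under each alternative setting (grey ticks). Plod2, P4ha2 and P4ha1 lie lowest at -0.40, -0.38 and -0.32, and the intervals of P4hb, Plod3 and Lox include 0.

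The order of the genes by mean level per length was the same in both groups. In control replicate 1, however, Plod2 at 53.6 CPM per kb exceeded Plod1 at 52.7. In control cells it ran from Lox at 1800.2 ± 35.6 CPM per kb through P4hb at 798 ± 6.56, Plod3 at 217 ± 1.40, Loxl1 at 190.2 ± 5.49, P4ha1 at 169 ± 2.28, Loxl2 at 136 ± 2.47 and P4ha2 at 65.6 ± 2.40 to Plod1, Plod2 and, lowest, P4ha3 at 32.3 ± 1.86. In fed cells the neighbours Plod1 and Plod2, at 44.2 ± 1.36 and 39.5 ± 0.919, lay further apart than their spread. The 10 genes together took 1.49 ± 0.0234% of all counts in control and 1.43 ± 0.0389% in fed libraries.

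The genes of type I collagen, a main substrate of these enzymes, also fell, with smaller fold changes than P4ha1 or Plod2. Col1a1, the alpha 1 chain of type I collagen, went from 19408 ± 263 to 17818 ± 562 CPM, and its log2 fold change was -0.12 ± 0.042 (adjusted p = 0.0252). Its call was lost with library totals only (0.106) and on leaving out control replicate 2 (0.111), fed replicate 1 (0.0639) or fed replicate 2 (0.161). The partner chain Col1a2 fell by 0.19 ± 0.042 (adjusted p = 0.00121). The log2 ratio of P4ha1 to Col1a1 counts went from -4.81 ± 0.019 to -5.00 ± 0.048 and that of Plod2 to Col1a1 from -6.11 ± 0.034 to -6.39 ± 0.026, without overlap (exact permutation p = 0.1, adjusted p = 0.13). The ratio of Lox to Col1a1 was -1.17 ± 0.045 and -1.09 ± 0.067, and the groups overlapped (exact permutation p = 0.2, adjusted p = 0.236). Of the 13 ratios compared, 10 had groups that did not overlap, and none had an adjusted p under 0.05 in the exact permutation test. Many of the pairs set a gene that fell against a gene that did not pass, so this number largely restates the fold changes above. The share over other gene pairs was not computed.

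**Figure D4:**
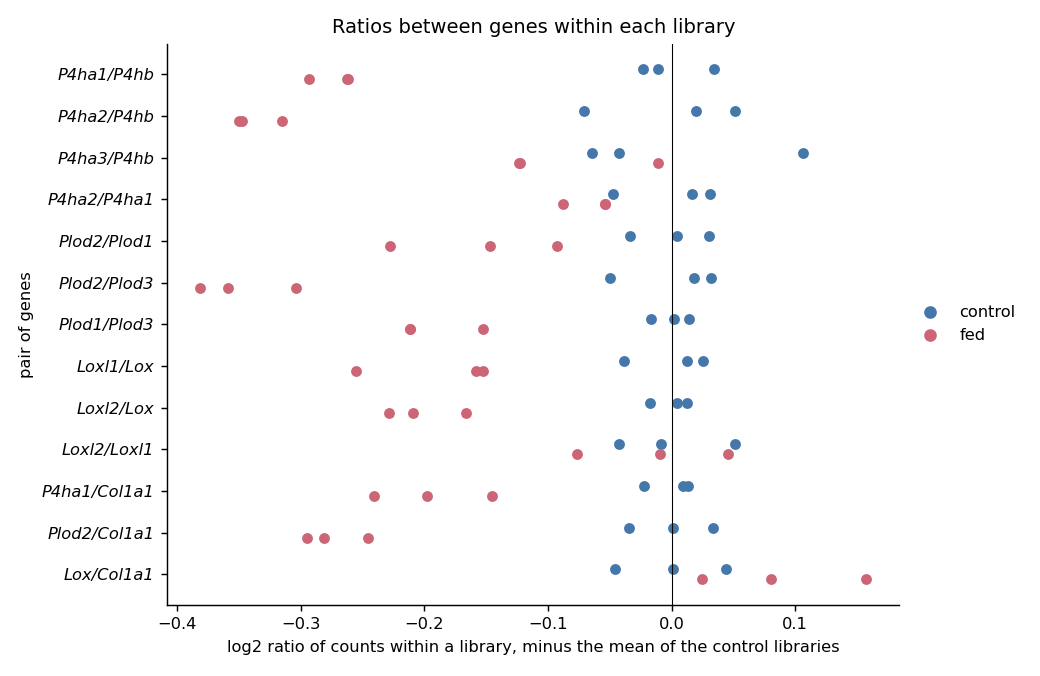
Log2 ratio of the counts of gene pairs within each library, minus the mean of the control libraries for that pair, with control libraries in blue and fed libraries in red. The groups lie apart for 10 of the 13 pairs and overlap for P4ha3/P4hb, Loxl2/Loxl1 and Lox/Col1a1. Other gene pairs were not compared.

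Of the 11 fibrillar collagen chains, all tested, 6 fell (54.5%, against 19.0% of all genes) and 2 rose (18.2%, against 20.5%). Their median log2 fold change was -0.19. Col5a2 fell by 0.26 ± 0.051 (adjusted p = 0.00068), while Col2a1, the chain of cartilage collagen, rose by 0.39 ± 0.040 (adjusted p = 1.42e-07) and Col5a3 by 0.78 ± 0.083 (adjusted p = 1.33e-06). The number lower was 2 without fed replicate 2 and 3 without fed replicate 3. Of 11 genes of elastic fibres, whose elastin is the other substrate of lysyl oxidases, 6 fell (54.5%, against 19.0% of all genes). None rose (against 20.5%). The median was -0.14, and no gene had an unadjusted p under 0.05 upward or was called higher by DESeq2 or limma-voom. Fbn1, the main fibrillin, fell by 0.34 ± 0.049 (adjusted p = 2.37e-05), Fbn2 by 1.10 ± 0.13 (adjusted p = 0.000932), Emilin1 by 0.38 ± 0.051 (adjusted p = 3.29e-05) and the microfibril gene Mfap2 by 0.27 ± 0.051 (adjusted p = 0.000227). Elastin itself, Eln, was low at 1.26 ± 0.206 CPM in control and 1.30 ± 0.402 CPM in fed cells, and did not pass (adjusted p = 0.883).

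Relatives of the enzymes outside the 10 went both ways. Of 7 tested, 2 fell and 2 rose, 28.6% each, against 19.0% and 20.5% of all genes tested. Their median was 0.04 on the log2 scale. Loxl3, another lysyl oxidase, rose from 554 ± 20.3 to 595 ± 20.2 CPM, which is 0.10 ± 0.039 on the log2 scale (adjusted p = 0.0449), a call lost without robust estimation (0.0549) and in every fit without 1 library but that without control replicate 3. Loxl4 had 39.7 ± 0.584 CPM in control and 40.9 ± 0.640 CPM in fed cells (adjusted p = 0.528). P3h1, a prolyl 3-hydroxylase, and P3h3, of the same family, fell by 0.17 ± 0.057 (adjusted p = 0.0337) and 0.33 ± 0.098 (0.0411), and P3h4 rose by 0.10 ± 0.036 (0.0315). In mice P3h3 and P3h4 form a complex with the lysyl hydroxylase of Plod1. The numbers rested on single libraries: none was called in either direction without control replicate 2, without fed replicate 2 or without fed replicate 3, and 1 was called in each direction without control replicate 1. A single gene was higher without control replicate 3 or fed replicate 1. P3h1 also lost its call with library totals only (0.0536), and P3h4 by DESeq2 (0.0595).

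Of 15 tested genes of collagen folding, glycosylation and export, 6 fell (40.0%, against 19.0% of all genes), 1 rose (6.67%, against 20.5%) and 8 did not pass. The median on the log2 scale was -0.04. The number lower was 4 with library totals only, without the filter on low counts or by DESeq2. It was 4 to 5 with 1 library left out, and 7 by limma-voom or with the replicate block. The COPII coat genes Sec24d and Sec23a, which carry procollagen out of the endoplasmic reticulum, fell by 0.27 ± 0.035 (adjusted p = 2.75e-06) and 0.24 ± 0.037 (adjusted p = 4.21e-05). Creb3l1, a transcription factor held in that membrane which drives collagen genes in osteoblasts, fell from 227 ± 2.6 to 135 ± 6.12 CPM (adjusted p = 3.13e-11). Fkbp11, a peptidyl prolyl isomerase, rose by 0.55 ± 0.054 (adjusted p = 1.02e-07). The collagen chaperone Serpinh1, at 2574 ± 49.5 and 2543 ± 47.3 CPM, did not pass (adjusted p = 0.743).

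Of 12 tested protein disulfide isomerases, the family to which P4hb belongs, 3 rose, 2 fell and 7 did not pass, with a median of -0.04. Both shares were close to those of all genes tested, of which 20.5% rose and 19.0% fell. Tmx1, Pdia4 and Pdia6 rose by 0.29 ± 0.053 (adjusted p = 0.00022), 0.12 ± 0.035 (0.00831) and 0.12 ± 0.035 (0.0122), the last a call lost on leaving out fed replicate 2 (0.0673). Dnajc10 fell by 0.11 ± 0.037 (adjusted p = 0.0272), but no member was lower with library totals only, by DESeq2 or without the filter on low counts. The same held on leaving out fed replicate 3 or either of control replicates 2 and 3, and 1 was lower without control replicate 1 or fed replicate 1. Of 9 tested genes of procollagen processing, 3 fell (33.3%, against 19.0% of all genes) and 1 rose (11.1%, against 20.5%). Their median was -0.07. Bmp1, which cuts the procollagen C-propeptide and activates Lox, fell by 0.34 ± 0.095 (adjusted p = 0.0338), and the related protease Tll1 rose by 0.88 ± 0.15 from a low level of 2.58 ± 0.194 CPM (adjusted p = 9.82e-05). The N-propeptidase Adamts2 fell by 0.19 ± 0.053 (adjusted p = 0.0115) and the convertase Furin by 0.12 ± 0.038 (0.0169). The call of Bmp1 was lost on leaving out any 1 of the fed libraries, with adjusted p-values of 0.0739, 0.095 and 0.099 for fed replicates 1, 2 and 3. That of Furin was lost with library totals only (0.079) and on leaving out control replicate 2 (0.0979), fed replicate 2 (0.101) or fed replicate 3 (0.0628). That of Adamts2 was lost only on leaving out fed replicate 2 (0.0535).

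Most genes that supply the cofactors did not pass. Of 6 tested, 2 fell (33.3%, against 19.0% of all genes) and none rose (against 20.5%). The median was -0.06, and no gene had an unadjusted p under 0.05 upward or was called higher by DESeq2 or limma-voom. Slc23a2, an ascorbate transporter, fell by 0.17 ± 0.052 (adjusted p = 0.0107), and Atp7a, the pump that loads copper onto lysyl oxidases, by 0.21 ± 0.057 (adjusted p = 0.00663). Slc23a2 lost its call by DESeq2 (0.0586) and on leaving out control replicate 2 (0.0777) or fed replicate 3 (0.0761), and Atp7a on leaving out control replicate 2 (0.0527). The number lower was 1 by DESeq2, without control replicate 2 or without fed replicate 3, and 3 without fed replicate 2.

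Other targets of the hypoxia-inducible factors fell beside P4ha1, P4ha2 and Plod2. Of 20, 15 fell (75.0%, against 19.0% of all genes) and none rose (against 20.5%), with a median of -0.25 on the log2 scale. No gene had an unadjusted p under 0.05 upward or was called higher by DESeq2 or limma-voom. Ero1l, the oxidase that restores protein disulfide isomerase, the P4hb product, fell from 118 ± 5.58 to 84.1 ± 1.90 CPM (adjusted p = 1.83e-08), and Pdk1, a kinase that restrains pyruvate dehydrogenase, by 0.42 ± 0.037 on the log2 scale (adjusted p = 2.18e-08). Bnip3l, a mitophagy receptor, fell by 0.52 ± 0.044 (adjusted p = 1.51e-08) and its relative Bnip3 by 0.63 ± 0.052 (adjusted p = 2.37e-07). The factor Hif1a fell from 477 ± 10.7 to 343 ± 1.39 CPM (adjusted p = 2.62e-09). Epas1 fell by 0.30 ± 0.092 (adjusted p = 0.0365, and 0.0768 without control replicate 2 or 0.11 without fed replicate 3). The oxygen sensor Egln1, already counted among the 15, fell by 0.34 ± 0.036 (adjusted p = 2.4e-07). Adm and Kdm3a, also in the list, did not pass, with log2 fold changes of 0.03 and -0.04, and neither did Lox. The part of oxygen in the fall of the collagen enzymes was not tested.

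**Figure D5:**
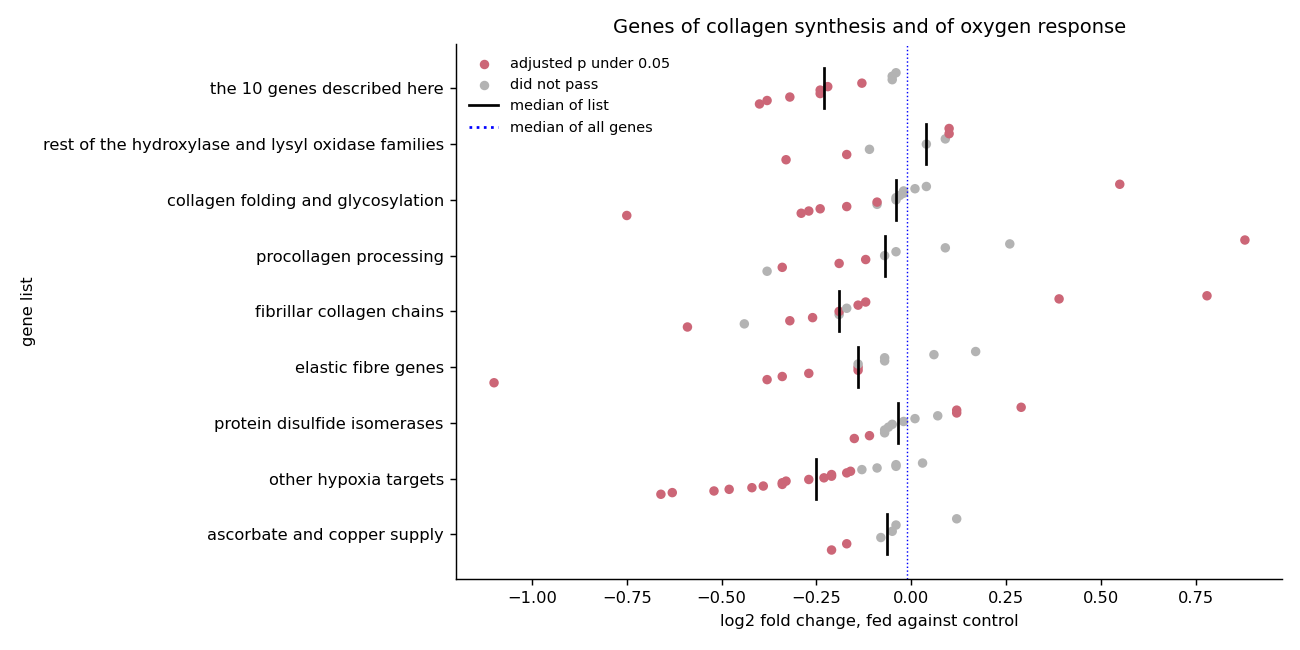
Log2 fold change of each tested gene of the 10 enzymes and of 8 related lists (dots, red where the adjusted p was under 0.05), with the median of each list (black line) and of all genes (dotted line at -0.01). Among the lists shown, the 10 enzymes and the other hypoxia targets have the lowest medians, at -0.23 and -0.25. Cell type markers are not shown, and the stromal markers had a median of -0.22.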

How the data were processed

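The authors deposited raw counts for each gene symbol, 1 column per library. Per the submitters' processing notes, these came from Trimmomatic 0.36, STAR 2.6.0c, featureCounts of Subread 1.6.1 and MultiQC 1.5 with build GRCm38; how strand and multi-mapping reads were handled, and which annotation release was used, is not given in the sources used here. Libraries were made with a stranded mRNA kit from 200 ng of RNA, per the labels. Names that read as dates, 27 with 0.227% of the counts, stayed in the totals.

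Tests used edgeR 4.0.16 in R 4.3.3: filterByExpr with default settings, TMM scaling and the robust quasi-likelihood test of 3 fed against 3 control libraries without a block. SEs were derived from the F statistic. CPM use TMM-scaled totals, and levels per length use merged exons of GENCODE M21. Replicate libraries of a group were not duplicates: they differed beyond sampling noise. Ratios were compared by exact permutation (scipy 1.17.1), two-sided. The test was checked on simulated counts. Alternatives were RLE scaling, library totals only, no filter, DESeq2 1.42.0, limma-voom (limma 3.58.1), no robust estimation, a replicate block and each library left out. Ratios were also taken with 0.5 count added.

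The genes and lists were chosen with earlier results of these data known. Named genes are the 10 enzymes, up to 4 called genes with the smallest adjusted p of each related list, Col1a1, Col1a2, Hif1a, Epas1, Egln1, Loxl3 and Loxl4. Genes named outside this rule, such as Eln, Serpinh1, Adm and Kdm3a, were chosen after their values were seen.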

Additional observations from a re-analysis of the deposited data

How the results depend on the processing

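Of the 10 enzymes, 9 kept direction and call under all 13 alternatives, and P4ha3 lost its call in 5 of them. The number of enzymes lower was 6 with library totals only or by DESeq2, 6 to 7 with 1 library left out, and 7 under the others. The number of genes called, 5175, ranged from 3739 by DESeq2 to 5848 with the replicate block, and from 4145 to 5088 with 1 library left out. Scaling by library totals moved the median of all genes to 0.025 from -0.007. Whether same-numbered libraries were paired is not stated in the labels. Deviations of same-numbered libraries correlated at 0.101, 0.022 and 0.128, and those of the other pairs at -0.115 to 0.0271. Each fed library correlated best with the control library of its number, but control replicate 2 correlated best with fed replicate 1. These values do not settle whether the libraries were paired. With the replicate block 7 enzymes were lower, the same number as without it.

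Among the related lists, for the relatives of the enzymes, 1 was lower with library totals only, and 1 was higher by DESeq2 or without robust estimation. With 1 library left out, 0 to 2 were lower and 0 to 1 higher. For protein disulfide isomerases, 0 were lower with library totals only, without the filter or by DESeq2, and 0 to 2 with 1 library left out. With 1 library left out, 0 to 3 genes of procollagen processing, 2 to 7 fibrillar collagen chains and 1 to 3 genes of cofactor supply were lower, and 1 of cofactor supply was lower by DESeq2. The log2 ratio of Loxl2 to Loxl1 changed sign, to 0.01 when control replicate 1 was left out and 0.02 when fed replicate 3 was, and ran from -0.04 to 0.02 over the libraries left out; the other 12 ratios kept their direction. For the other named genes, 411 of 455 refits kept the call, 44 lost it and none reversed. The cause of these changes was not tested. The fits with 1 library left out have fewer samples. Counts per library of the 10 enzymes ran from 1848 for P4ha3 to 195507 for Lox.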
